A study of Homo sapiens with 8 samples.

Results

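The genes described here encode the proteins of the small nucleolar ribonucleoproteins (snoRNPs): NOP56, NOP58, FBL and SNU13 of the box C/D particle, DKC1, NHP2, NOP10 and GAR1 of the H/ACA particle, NAF1, which assembles the H/ACA particle, and NOLC1, a nucleolar chaperone of both. They were chosen by name, with earlier results of these data known, and found by gene symbol. They are 10 of the 58219 genes listed in the files. All 10 were among the 13129 protein-coding genes tested. RNA sequencing was performed on 8 libraries from H929 and KMS11, established multiple myeloma (MM) cell lines that both carry the t(4;14) translocation, each grown for 24 h in ethanol, the solvent control, or in 2 μM fluvastatin, an inhibitor of HMG-CoA reductase, with 2 biological replicates for each line and treatment.

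As background, each snoRNP joins a guide RNA to a fixed set of proteins. In box C/D particles fibrillarin (FBL) transfers the methyl group to the ribose of ribosomal RNA, and in H/ACA particles dyskerin (DKC1) turns uridine into pseudouridine. The guide base-pairs with its target and the other core proteins hold guide and enzyme in place. Most human guide RNAs are cut from introns of other genes, and several of the core proteins are themselves made from such host genes. SNU13 is also a protein of the U4 spliceosomal particle, and the H/ACA core is part of telomerase.

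Among the 10 genes, NOP56, NOP58 and DKC1 hold 11 annotated snoRNAs in their introns, 8 of the box C/D and 3 of the H/ACA type (GENCODE release 44, GRCh38). NOP56 lies at chr20:2652593-2658393 on the plus strand, NOP58 at chr2:202265736-202303661 on the plus strand and DKC1 at chrX:154762742-154777689 on the plus strand. Shown here, because they tie the protein genes to the RNAs that those proteins bind, are SNORD56 (intron 9 of NOP56, chr20:2656624-2656694), SNORD57 (intron 10 of NOP56, chr20:2656939-2657010), SNORA51 (intron 5 of NOP56, chr20:2655067-2655198), SNORD11 (intron 9 of NOP58, chr2:202293051-202293134), SNORA36A (intron 8 of DKC1, chrX:154768528-154768659) and SNORA56 (intron 12 of DKC1, chrX:154774998-154775126), all on the plus strand. Capitals mark TGATG of box C and CTGA of box D in the box C/D RNAs, which the NOP56, NOP58, FBL and SNU13 proteins recognise as a unit, and the ACA near the 3′ end of the H/ACA RNAs.
SNORD56: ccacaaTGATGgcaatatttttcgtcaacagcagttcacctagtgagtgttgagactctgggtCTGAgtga
SNORD57: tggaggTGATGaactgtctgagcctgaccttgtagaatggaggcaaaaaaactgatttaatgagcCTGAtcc
SNORA51: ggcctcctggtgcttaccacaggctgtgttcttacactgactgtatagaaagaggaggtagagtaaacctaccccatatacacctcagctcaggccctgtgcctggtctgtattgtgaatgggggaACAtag
SNORD11: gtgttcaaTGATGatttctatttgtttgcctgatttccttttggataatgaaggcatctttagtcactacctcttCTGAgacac
SNORA36A: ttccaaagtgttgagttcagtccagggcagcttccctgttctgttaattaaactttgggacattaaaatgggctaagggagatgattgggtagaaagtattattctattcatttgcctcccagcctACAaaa
SNORA56: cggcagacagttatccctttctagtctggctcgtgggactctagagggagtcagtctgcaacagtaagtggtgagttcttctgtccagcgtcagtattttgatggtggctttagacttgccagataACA
The letters were searched on the RNA's own strand, TGATG in the first 25 bases with CTGA in the last 25, and ACA in the last 8. The same search found the box C and box D letters in 76.0% of the 313 annotated SNORD genes and ACA in 82.2% of the 214 annotated SNORA genes. The snoRNAs themselves were not measured by these libraries: none of the 11 exceeded 2 counts in any library, and their effective length, the number of positions where a fragment of the usual size can start, was at most 4.54 bases.

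Of the other 7 genes, FBL lies at chr19:39834458-39846379 on the minus strand, SNU13 at chr22:41673933-41690504 on the minus strand, NHP2 at chr5:178149463-178153894 on the minus strand, NOP10 at chr15:34339159-34343180 on the minus strand, GAR1 at chr4:109815510-109824740 on the plus strand, NAF1 at chr4:163110073-163166890 on the minus strand and NOLC1 at chr10:102152176-102163871 on the plus strand. The 10 genes are on 9 chromosomes. Their expected counts, the reads that the authors' software assigned to each gene, ran from 138 for NAF1 in an H929 fluvastatin library to 23767 for NOLC1 in a KMS11 ethanol library. Listed copies of the genes, such as NHP2P1 and FBLL1, had at most 24 counts. RMND5B overlaps 1106 bases at the 3′ end of NHP2 on the other strand and had 473 to 832 counts. C22orf46P overlaps 1628 bases at the 5′ end of SNU13 on the other strand and had 130 to 509. The libraries were made with a stranded kit, and whether strand was used in counting is not given in the sources used here.

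Totals ran from 26702515 to 41910446 counts per library. All 8 plasma cell markers listed passed the filter on low counts, although CD38 had only 4 to 11 counts in KMS11. Their summed level, most of it JCHAIN, was 5958 to 6905 TPM (a gene's reads per transcript length, scaled to the same total in each library) in H929 in ethanol and 6880 to 7836 in fluvastatin, and 6331 to 6825 in KMS11 in ethanol and 4501 to 5644 in fluvastatin. In H929 SDC1 (log2 fold change -1.08, adjusted p = 0.00086, edgeR), SLAMF7 (-0.98, adjusted p = 0.0003) and XBP1 (-0.34, adjusted p = 0.0083) fell with fluvastatin, and PRDM1 (0.32, adjusted p = 0.015) and JCHAIN (0.35, adjusted p = 0.022) rose. In KMS11 XBP1 alone was called (-0.40, adjusted p = 0.035). Of 7 markers of other blood cells CD3E and HBB passed the filter, HBB at 4 to 20 counts. The summed level of the 7 was 1.94 to 2.17 TPM in H929 in ethanol, 3.28 to 4.09 in H929 in fluvastatin and 0.85 to 1.36 in KMS11. CD3E rose in H929 (log2 fold change 1.13 ± 0.23 SE, adjusted p = 0.0031, edgeR), CD14 was at 0, and MS4A1 had no more than 1 count in any library. The part of either marker list in the results was not tested. The KMS11 fluvastatin replicates lay farther apart than the other pairs, with an SD of the log2 ratio of 0.252 over 5561 well-expressed genes against 0.126 to 0.182. Since bulk RNA was measured, fewer cells with a transcript and less of that transcript per cell cannot be told apart. Values are scaled to each library's total, so a change in total RNA per cell would not be seen.

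To give the starting point, levels were first compared per transcript length, in TPM. In ethanol-treated H929 cells FBL (126.7 ± 10.3, SD, n = 2) and NOP56 (119.8 ± 13.7) were highest and their replicates overlapped. NOP10 (103.8 ± 2.66), NHP2 (94.7 ± 4.67), NOP58 (88.0 ± 11.8), SNU13 (76.5 ± 5.20) and DKC1 (74.98 ± 6.65) followed, and from NHP2 to DKC1 each gene overlapped the next. NOLC1 (57.2 ± 1.35), GAR1 (13.8 ± 2.31) and NAF1 (3.03 ± 0.22) stood apart from each other and from the rest. The transcripts of the core proteins thus lay within a narrow band apart from GAR1, and that of the assembly factor NAF1 was far below them.

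In ethanol-treated KMS11 cells FBL (258.9 ± 21.4 TPM, SD, n = 2) and NOP56 (255.2 ± 19.6) were again highest and overlapping. NOP10 (188.0 ± 7.17) came next, then NOLC1 (137.0 ± 2.11), DKC1 (113.2 ± 4.71), SNU13 (92.0 ± 2.93), NOP58 (88.2 ± 0.56) and NHP2 (80.3 ± 8.90), each apart from the next. GAR1 (31.8 ± 4.12) and NAF1 (5.62 ± 0.78) were lowest, as in H929. The 10 genes summed to 742.9 and 774.1 TPM in the H929 ethanol libraries, 404.9 and 444.1 in H929 fluvastatin, 1229.6 and 1270.8 in KMS11 ethanol, and 907.7 and 1000.8 in KMS11 fluvastatin. TPM is a share of all RNA, and protein-coding genes held 32.3% to 34.8% of it in H929 libraries and 38.4% to 46.8% in KMS11 libraries. So levels of the lines in TPM are not on 1 scale. In KMS11 this share was 46.8% and 44.9% in ethanol and 38.4% and 42.6% in fluvastatin. In H929 it was 34.8% and 34.2% in ethanol and 32.3% and 32.7% in fluvastatin. Levels of the treatments in TPM are thus not on 1 scale either.

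**Figure D1:**
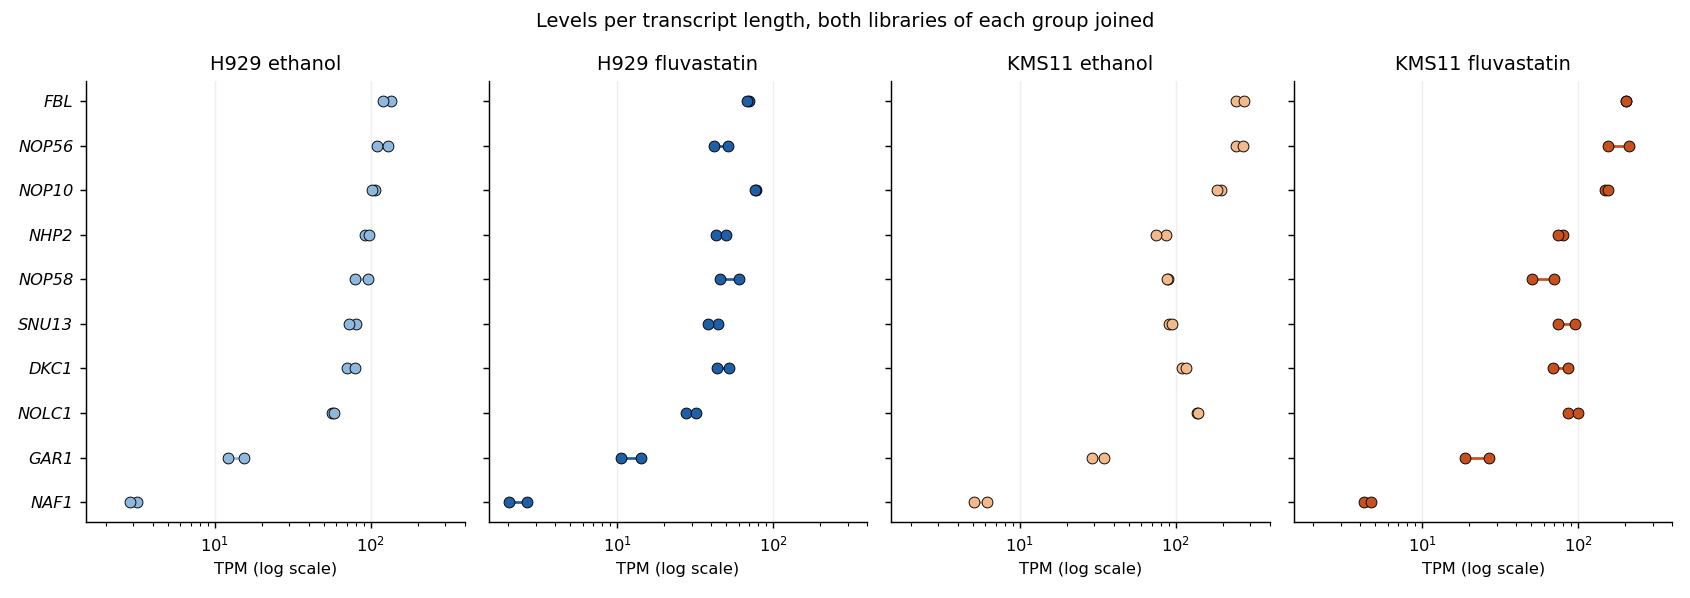
TPM of the 10 genes (log scale, horizontal) in the 4 groups, with the 2 libraries of a group joined by a line. GAR1 and NAF1 lie lowest in all groups, and in H929 the position of NOP56 moves from the top pair in ethanol to the middle in fluvastatin.

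The lines were then compared in ethanol by edgeR's quasi-likelihood F test on counts, given here as CPM, each gene's count scaled by TMM to the same total of protein-coding counts in each library, with p adjusted by the Benjamini-Hochberg method over all genes tested. Here 5 of the 10 genes were higher in KMS11 and 2 were lower, against 35.6% and 36.4% of all tested genes. NOLC1, the chaperone, was higher by 0.71 ± 0.10 on the log2 scale (adjusted p = 0.00013), GAR1 by 0.63 ± 0.18 (adjusted p = 0.0086) and FBL by 0.43 ± 0.11 (adjusted p = 0.0055). NOP56 and NOP10 were higher by 0.32 each (adjusted p = 0.034 and 0.0069). NHP2, which binds the H/ACA guide beside dyskerin, was lower in KMS11 (-0.79 ± 0.11, adjusted p = 0.00014), and so was NOP58 (-0.60 ± 0.15, adjusted p = 0.0047). The others, SNU13, DKC1 and NAF1, were not called. NOP56 was not called without H929 ethanol replicate 1 (0.23) or KMS11 ethanol replicate 2 (0.21), GAR1 without H929 ethanol replicate 1 (0.47) or KMS11 ethanol replicate 1 (0.55), and FBL without KMS11 ethanol replicate 2 (0.33). When the trend of each library's counts along gene GC content was smoothed and removed, NOP10 was not called (0.08). On log2(TPM + 1) values, where the scale differs as stated, 7 genes were higher and none lower by limma. Of all 13129 tested genes 6644 were then called higher and 2477 lower, against 4680 and 4774 in edgeR. NOP58 and NHP2 were not called on these values (log2 differences 0.01 and -0.24), and DKC1 and NAF1 were called higher.

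To evaluate the response to fluvastatin, treated and control cells were compared within each line. In H929 cells 8 of the 10 genes fell, against 19.3% of all tested genes called lower, and both fluvastatin libraries lay below both ethanol libraries for 9 of the 10, against 33.5% of all genes. The median log2 fold change of the 10 was -0.76, and that of all tested genes 0.02. The transcripts of all 4 box C/D core proteins fell, with those of 3 of the 4 H/ACA core proteins and of NOLC1. Protein was not measured, and here and below a fall is one of RNA.

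NOP56, a scaffold protein of the box C/D particle, had 254.4 and 291.2 CPM in the H929 ethanol libraries and 105.4 and 116.2 in fluvastatin. The groups lay far apart, and the fitted level in fluvastatin was 40.6% of that in ethanol, the lowest share of the 10 (log2 fold change -1.30 ± 0.12, adjusted p = 4.3e-05). NOP58, its partner in the scaffold, had 295.2 and 358.9 CPM in ethanol and 170.1 and 213.7 in fluvastatin. Both treated libraries were below both controls, and the replicates of NOP58 differed more than those of NOP56 in relative terms (log2 fold change -0.77 ± 0.15, adjusted p = 0.0025).

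FBL, the methyltransferase, had 191.7 and 168.6 CPM in H929 in ethanol and 99.1 and 93.1 in fluvastatin. It fell to 53.3% of the ethanol level (log2 fold change -0.91 ± 0.11, adjusted p = 0.00019). SNU13, the first protein to bind the box C/D fold, had 149.2 and 155.4 CPM in ethanol and 92.9 and 88.1 in fluvastatin, with no overlap. Its fall was to 59.4% (log2 fold change -0.75 ± 0.10, adjusted p = 0.00025).

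In the H/ACA particle, DKC1, the pseudouridine synthase, had 306.7 and 355.2 CPM in H929 in ethanol and 188.7 and 224.7 in fluvastatin. It fell to 62.5% (log2 fold change -0.68 ± 0.13, adjusted p = 0.0021), and its groups did not overlap. NHP2 had 127.6 and 138.8 CPM in ethanol and 61.0 and 69.2 in fluvastatin. This was the larger fall, to 48.9% (log2 fold change -1.03 ± 0.12, adjusted p = 0.0001). The falls of NHP2 and DKC1 were closer with trends in GC content and length both removed, at -0.73 and -0.70. NOP10, a small protein that links dyskerin to NHP2, had 84.8 and 82.8 CPM in ethanol and 62.4 and 60.4 in fluvastatin, replicates that were nearly equal. It fell to 73.3% (log2 fold change -0.45 ± 0.09, adjusted p = 0.0024). With trends in GC content and length both removed the NOP10 value was -0.18 and its adjusted p 0.058.

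GAR1, which binds dyskerin last and takes the place of NAF1, was not called. It had 22.8 and 28.9 CPM in H929 in ethanol and 19.5 and 25.8 in fluvastatin, so the groups overlapped (log2 fold change -0.18 ± 0.18, adjusted p = 0.44). Its value rested on single H929 libraries. It was -0.40 when replicate 2 in fluvastatin was left out and -0.001 when replicate 1 was, and for the ethanol libraries -0.35 when replicate 1 was left out and -0.004 when replicate 2 was, none of them called. NAF1 had 9.67 and 9.28 CPM in ethanol and 6.06 and 7.65 in fluvastatin. Its groups were apart, but the difference missed the threshold (log2 fold change -0.47 ± 0.18, adjusted p = 0.059), and it passed when trends in GC content were removed (-0.54, adjusted p = 0.0071). NOLC1 had 369.1 and 403.0 CPM in ethanol and 187.0 and 218.0 in fluvastatin. It fell to 52.5% (log2 fold change -0.93 ± 0.10, adjusted p = 9.6e-05). The number of genes that fell in H929 was 8 or 9 under each alternative that was fitted within the line and without each library in turn.

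**Figure D2:**
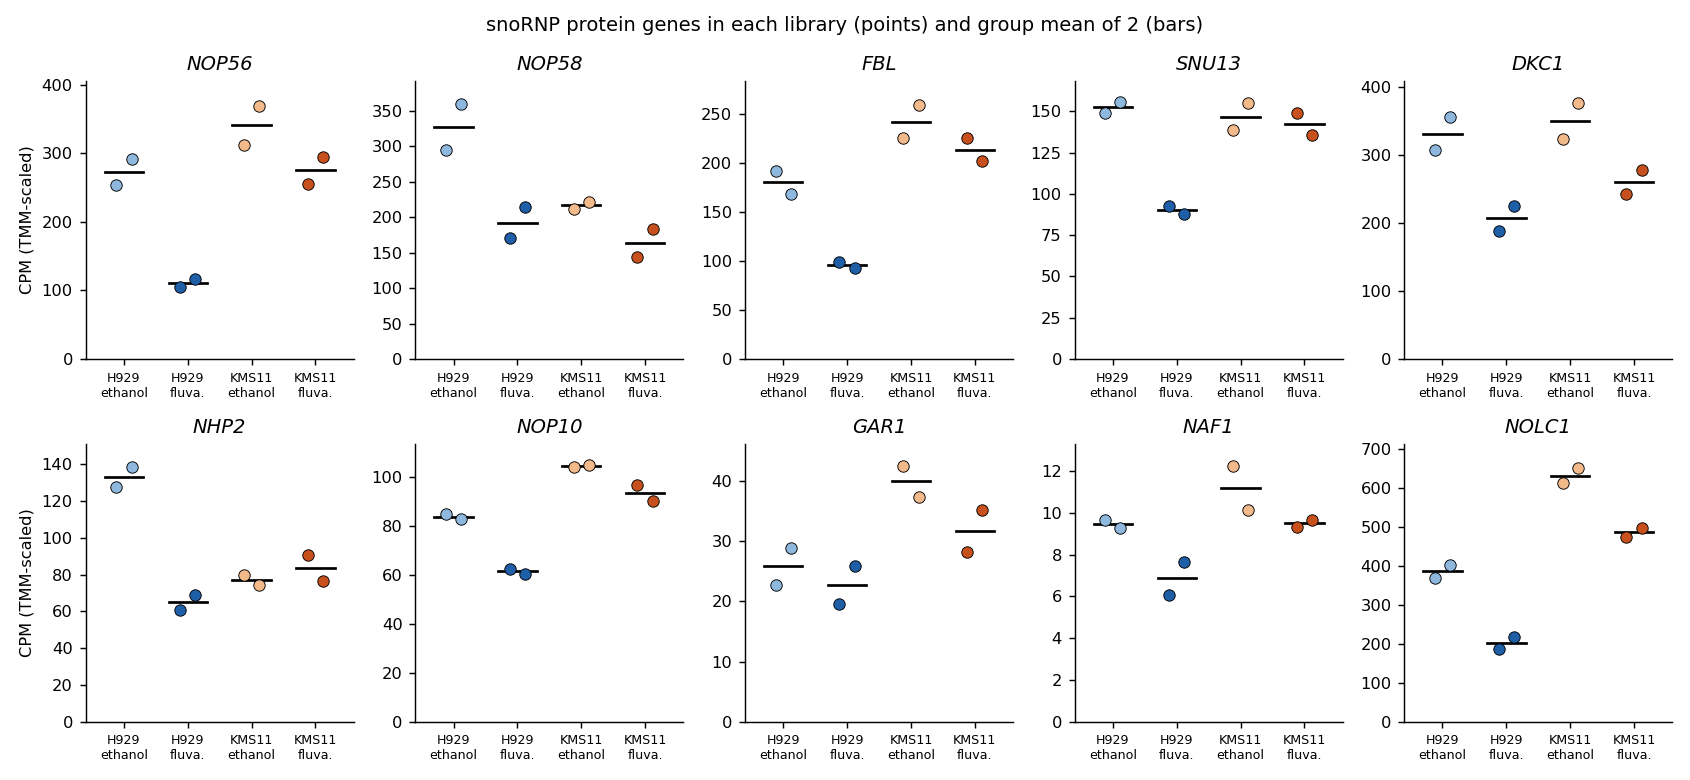
CPM (TMM-scaled, vertical, from 0) of each gene in the 8 libraries, 1 point per library, with bars at the mean of 2. For 9 genes, all but GAR1, the H929 fluvastatin points lie below the H929 ethanol points, and in KMS11 this holds for 7.

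In KMS11 cells 0 of the 10 genes passed the threshold in edgeR, where 0.533% of all tested genes were called lower. The fluvastatin libraries lay below the ethanol libraries for 7 of the 10, against 26.5% of all genes. The median log2 fold change of the 10 was -0.27, and that of all genes 0.00. NOLC1 had 612.7 and 650.1 CPM in ethanol and 473.1 and 498.6 in fluvastatin (log2 fold change -0.38 ± 0.10, adjusted p = 0.078). DKC1 had 323.5 and 376.3 CPM in ethanol and 242.6 and 277.5 in fluvastatin (log2 fold change -0.43 ± 0.13, adjusted p = 0.10). For both genes the groups did not overlap. NOP58 was apart as well, with 211.1 and 221.8 CPM in ethanol and 144.0 and 183.2 in fluvastatin (log2 fold change -0.40 ± 0.15, adjusted p = 0.16).

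NOP56 had 311.9 and 369.3 CPM in KMS11 in ethanol and 255.6 and 294.9 in fluvastatin (log2 fold change -0.31 ± 0.12, adjusted p = 0.18). NOP10 (104.1 and 104.9 against 96.7 and 90.2 CPM), GAR1 (42.5 and 37.4 against 28.2 and 35.2) and NAF1 (12.2 and 10.2 against 9.32 and 9.66) were also apart without passing (log2 fold changes -0.16 ± 0.09, -0.33 ± 0.17 and -0.24 ± 0.17). The remaining 3 genes overlapped between treatments. FBL had 224.8 and 259.0 CPM in ethanol and 225.2 and 201.5 in fluvastatin, SNU13 had 138.5 and 154.9 against 148.9 and 135.7, and NHP2 had 80.1 and 74.2 against 90.9 and 76.3. Their log2 fold changes were -0.18 ± 0.11, -0.05 ± 0.10 and 0.11 ± 0.11, and the sign of NHP2 turned when trends in GC content were removed (-0.025).

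Some alternatives did call genes in KMS11. DKC1 and NOLC1 were called lower by DESeq2, which called 2.05% of all genes lower, and with no filter on low counts, with 1.23%. With limma on log2(TPM + 1) NOLC1 alone was called, with 0.731% of all genes. With the GC trends removed NOP58, FBL, DKC1 and NOLC1 were called lower, when 4.71% of all genes were, and likewise with GC and length trends removed, with 5.29%. NOP56, NOP58, DKC1 and NOLC1 were called with a replicate block, with 3.63% of all genes, and without KMS11 fluvastatin replicate 2, with 4.84%. NOLC1 was in each of these sets and DKC1 in all but that of limma.

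**Figure D3:**
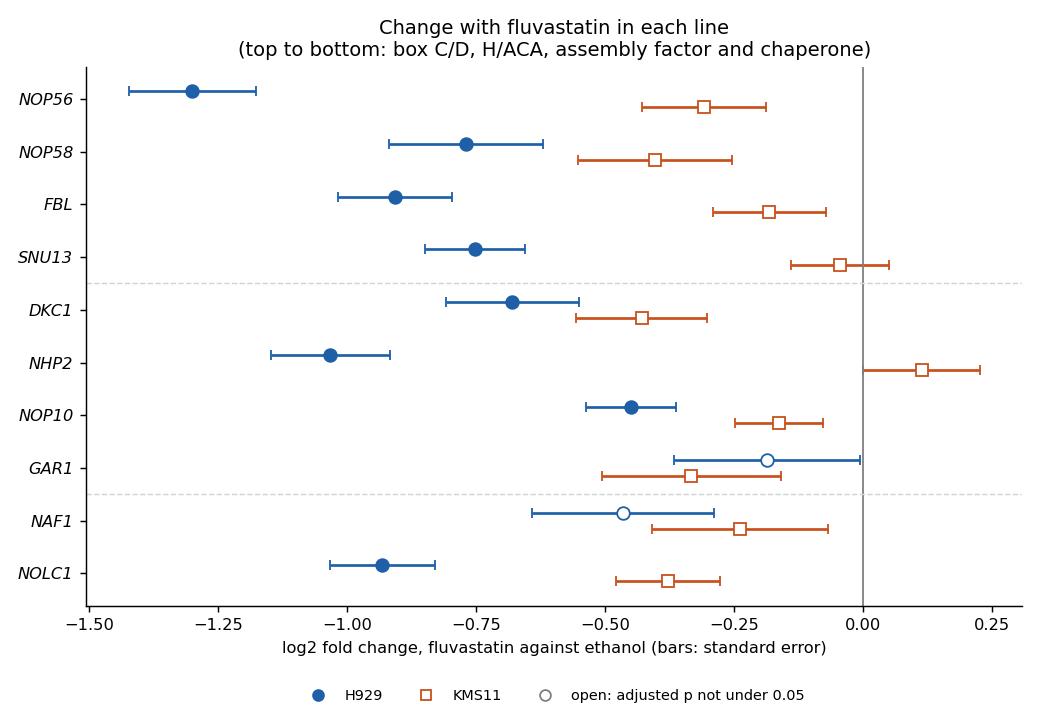
Log2 fold change with fluvastatin (horizontal, bars are standard errors) of each gene in H929 (blue circles) and KMS11 (orange squares), with open symbols where the adjusted p was not under 0.05. The H929 values run from -1.30 for NOP56 to -0.18 for GAR1, and the KMS11 values from -0.43 for DKC1 to 0.11 for NHP2.

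Whether the lines responded differently was tested directly, as the change in KMS11 minus that in H929. For 5 of the 10 genes the change in H929 was the more negative, against 11.7% of all tested genes. NHP2 differed most (1.15 ± 0.16 on the log2 scale, adjusted p = 0.0014), then NOP56 (0.99 ± 0.17, adjusted p = 0.0036), FBL (0.73 ± 0.16, adjusted p = 0.0097), SNU13 (0.71 ± 0.14, adjusted p = 0.0061) and NOLC1 (0.55 ± 0.14, adjusted p = 0.021). So 3 of the 4 box C/D genes were in this set, and of the H/ACA core NHP2 alone. For FBL the difference was 0.25 with trends in GC content and length removed (adjusted p = 0.074). Without KMS11 ethanol replicate 1, FBL (0.63) and NOLC1 (0.52) were not called, which left 3 genes. NOLC1 was also not called without H929 ethanol replicate 2 (0.49), H929 fluvastatin replicate 1 (0.45) or KMS11 ethanol replicate 2 (0.60).

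The other 5 genes were not shown to differ between the lines. The difference was 0.37 ± 0.21 for NOP58, 0.25 ± 0.18 for DKC1, 0.29 ± 0.12 for NOP10 and 0.23 ± 0.25 for NAF1. For GAR1 it was -0.15 ± 0.25. NOP58 passed with trends in GC content removed (0.52, adjusted p = 0.0091), as did NOP10 (0.35, adjusted p = 0.028). With trends in length removed as well, NOP58 still passed (0.51, adjusted p = 0.007) and NOP10 did not (0.07, adjusted p = 0.67).

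Across the 8 libraries, in a fit that took out the difference between the lines, 4 of the 10 genes were lower in fluvastatin, against 3.93% of all tested genes. They were NOLC1 (log2 fold change -0.65 ± 0.12, adjusted p = 0.019), DKC1 (-0.55 ± 0.11, adjusted p = 0.020), NOP58 (-0.59 ± 0.13, adjusted p = 0.030) and NOP56 (-0.80 ± 0.20, adjusted p = 0.037). FBL (-0.54 ± 0.15, adjusted p = 0.053) and NOP10 (-0.30 ± 0.09, adjusted p = 0.056) just missed the threshold, and all 10 values were negative. This count was the least steady, and the calls over all genes moved as well. It was 7 in DESeq2, which called 1234 of the 13129 genes lower, against 516 in the main fit. With a replicate block it was 0, when 15 of all genes were called lower. Without any 1 of the 4 H929 libraries the median log2 fold change of the 10 ran from -0.418 to -0.406, against -0.50 with all 8.

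Because the core proteins bind in fixed numbers, the levels of partner transcripts were set against each other within each library, as ratios of TPM, which do not depend on the scaling between libraries. NOP56 was 1.38 and 1.34 times NOP58 in the H929 ethanol libraries and 0.914 and 0.861 times in fluvastatin, so their order in TPM turned. Their H929 log2 fold changes were closer with trends in GC content and length removed from the counts. They were then -1.10 for NOP56 and -0.80 for NOP58, against -1.30 and -0.77 in the main fit. Whether the order would turn with these trends removed was not tested. In KMS11 the ratio was 2.72 and 3.07 in ethanol and 3.06 and 3.04 in fluvastatin, above H929 in all libraries and overlapping between treatments.

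NHP2 was 1.3 and 1.23 times DKC1 in H929 in ethanol and 0.976 and 0.967 times in fluvastatin, whereas in KMS11 it was 0.788 and 0.635 times in ethanol and 1.15 and 0.871 times in fluvastatin. The ratio was thus lower with fluvastatin in H929 and higher in KMS11, with no overlap in either line. Trends along GC content and length were not removed from these ratios. With both removed from the counts, the H929 log2 fold changes of NHP2 and DKC1 were -0.73 and -0.70, against -1.03 and -0.68 in the main fit. In KMS11 they were 0.005 and -0.37, against 0.11 and -0.43. GAR1 was 0.173 and 0.194 times DKC1 in H929 in ethanol and 0.240 and 0.273 times in fluvastatin, the opposite direction to NHP2. In KMS11 it was 0.316 and 0.248 times in ethanol and 0.271 and 0.314 times in fluvastatin, which overlapped. NOLC1 was 0.800 and 0.730 times DKC1 in H929 in ethanol and 0.627 and 0.618 times in fluvastatin, and 1.16 to 1.24 times in all KMS11 libraries. FBL to SNU13 overlapped between treatments in H929, at 1.67 and 1.64 in ethanol and 1.56 and 1.78 in fluvastatin. With 2 libraries against 2, a two-sided exact permutation test cannot go below p = 0.333, and none was run on these ratios.

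**Figure D4:**
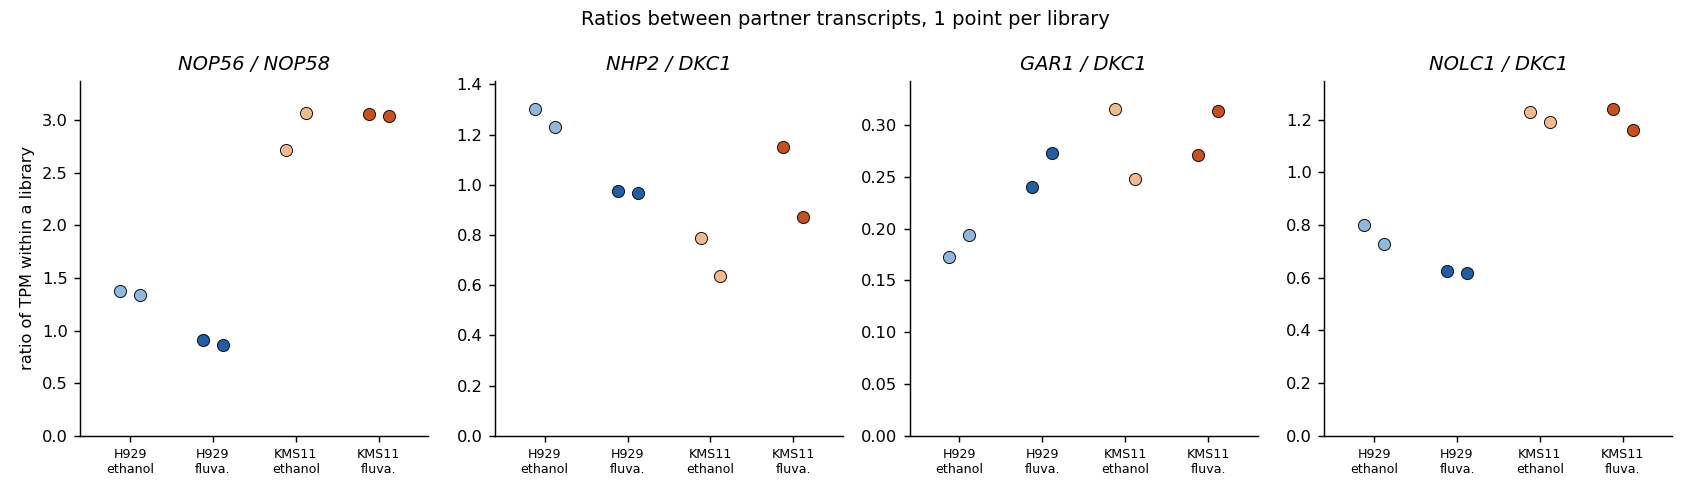
Ratios of TPM between partner transcripts within each library (vertical, from 0), 1 point per library, for NOP56 to NOP58, NHP2 to DKC1, GAR1 to DKC1 and NOLC1 to DKC1. The NOP56 to NOP58 ratio lies above 1 in ethanol and below 1 in fluvastatin in H929, and between 2.72 and 3.07 in KMS11.

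The 10 profiles across libraries were compared after taking out each line's mean of log2 CPM. NOLC1 (r = 0.996) and NOP56 (r = 0.984) followed the mean of the other 9 genes most closely over the 8 libraries, and GAR1 least (r = 0.532). The rest lay between 0.856 for NHP2 and 0.940 for NOP10. Outside the 10, the genes with the profiles most like their mean were WDR77, a subunit of the arginine methylation complex of Sm proteins (r = 0.999), HSPE1, a mitochondrial chaperonin (r = 0.998), ZNF232 (r = 0.998), GSR, glutathione reductase (r = 0.997), and RRP1B, a nucleolar protein (r = 0.997). These correlations are descriptions over 8 libraries that share their treatment contrast and were picked from all genes tested. In H929 WDR77 fell by 1.11 and HSPE1 fell by 1.51 on the log2 scale, a direction that the choice by likeness favours.

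Transcripts of proteins that build, process or share partners with the snoRNPs were counted next. They are read against the 19.3% of all tested genes called lower in H929 and the 0.533% in KMS11. Counts within each line are not a test between the lines, which is given after the lists. Of 10 assembly factors 6 fell in H929 and 1 in KMS11, with median log2 fold changes of -0.43 and -0.25. RUVBL1, an ATPase of the R2TP assembly machine, fell in H929 (-0.77, adjusted p = 0.00013) and in KMS11 (-0.42, adjusted p = 0.032). Its partner RUVBL2 (-0.95, adjusted p = 0.0026) and NOPCHAP1, a chaperone for NOP58 (-0.89, adjusted p = 0.0019), fell in H929. The KMS11 values of this pair were 0.31 and -0.39, neither called.

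U3 is the box C/D particle that helps cleave the ribosomal RNA precursor. Transcripts of all 4 proteins specific to it fell in H929 (median -0.84) and 0 in KMS11 (median -0.19). They included IMP4 (-0.84, adjusted p = 0.00028), IMP3 (-0.85, adjusted p = 0.00057) and RRP9 (-0.97, adjusted p = 0.0024). The 4 U4 particle partners of SNU13 likewise all fell in H929 (median -0.74) and 0 in KMS11 (median -0.20), led by PPIH, a cyclophilin (-1.15, adjusted p = 4.4e-05), PRPF3 (-0.69, adjusted p = 0.00018) and PRPF4 (-0.66, adjusted p = 0.0003).

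Of 7 listed genes, those of Cajal body and telomerase proteins with the nucleolar TCOF1, 5 fell in H929 and 0 in KMS11 (medians -0.51 and -0.01). TCOF1, a nucleolar partner of NOLC1, fell by 1.53 on the log2 scale (adjusted p = 7.6e-05), and WRAP53, which carries H/ACA RNAs to Cajal bodies, fell by 1.20 (adjusted p = 0.00062). TERT, the telomerase reverse transcriptase, fell by 2.08 (adjusted p = 0.0024) at no more than 83 counts in any library. Of 10 snoRNA processing enzymes 4 fell in H929 and 1 in KMS11 (medians -0.29 and -0.18). In H929 these included EXOSC3 of the exosome (-0.69, adjusted p = 0.00071), its helicase MTREX (-0.39, adjusted p = 0.011) and DBR1, which opens intron lariats (-0.57, adjusted p = 0.012). TENT4B, a poly(A) polymerase, was the gene called in KMS11 (-0.57, adjusted p = 0.024). With trends in GC content removed 8 of these 10 were called lower in H929, against 23.9% of all tested genes.

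Among 14 listed RNA modification enzymes that are not core proteins of the snoRNPs, 10 fell and 1 rose in H929, and 1 fell in KMS11 (medians -0.59 and -0.19). Of all tested genes 22.7% were called higher in H929. The ribose methyltransferase FTSJ3 (-0.90, adjusted p = 4.2e-05), the cytosine methyltransferase NOP2 (-0.87, adjusted p = 0.00022) and the pseudouridine synthase PUS7 (-1.08, adjusted p = 0.00027) fell in H929, and PUS7 also in KMS11 (-0.60, adjusted p = 0.045). TRUB1, another pseudouridine synthase, rose in H929 (0.42, adjusted p = 0.027).

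The hosts of snoRNAs that encode no protein were tested among all 16719 genes that passed the filter. Of 18 such hosts 11 fell in H929, where 18.0% of all these genes did, and 0 in KMS11, where 0.371% did (medians -0.51 and -0.16). SNHG1 (-1.57, adjusted p = 4.5e-05), SNHG17 (-1.22, adjusted p = 5e-05) and SNHG15 (-0.95, adjusted p = 0.00016) had the smallest p in H929. Protein-coding hosts other than NOP56, NOP58 and DKC1 stood nearer to the background, with 25.2% of 222 called lower in H929 (median -0.12). By the direct test the change in H929 was the more negative for 1 of the 10 assembly factors, 3 of the 4 U3 genes and all 4 U4 partners. It was so for 3 of the 7 Cajal body and telomerase genes and 0 of the 10 processing enzymes. The counts were 6 of the 14 modification enzymes, with TRUB1 the other way, and 6 of the 18 hosts without protein. Of all 13129 protein-coding genes tested 11.7% were so called, and of all 16719 genes 1658.

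**Figure D5:**
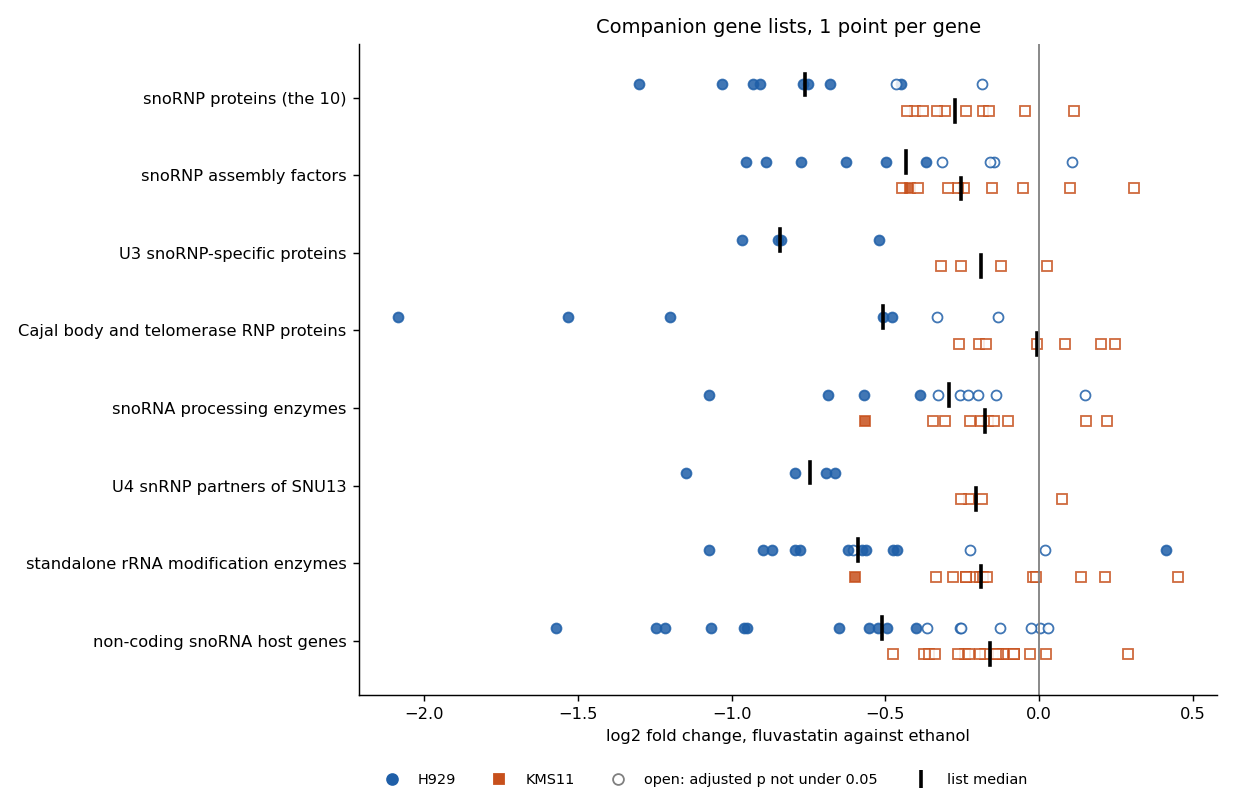
Log2 fold change with fluvastatin (horizontal) of the 10 snoRNP genes and of each companion list, 1 point per gene, in H929 (blue circles) and KMS11 (orange squares), with black bars at the list medians and open symbols where the adjusted p was not under 0.05. The H929 medians run from -0.84 for the U3 proteins to -0.29 for the processing enzymes, and the KMS11 medians from -0.27 for the 10 genes to -0.01 for the Cajal body list.

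The RNAs that these proteins bind could be followed only where they are long enough for the fragments. Of 990 snoRNA and Cajal body RNA genes listed, 785 had a count of 0 in every library, and 446 had an effective length of 0. Of 20 that are at least 180 bases long and passed the filter, 1 fell and 1 rose in H929, where 18.0% of all 16719 genes fell and 18.6% rose. In KMS11 0 changed, where 0.371% of all these genes fell. The medians were -0.02 and 0.04. SNORD3A, a U3 gene whose near-identical copies may share its reads, had 4997 and 6213 CPM in H929 in ethanol and 4872 and 6581 in fluvastatin (log2 fold change 0.03 ± 0.16, adjusted p = 0.91). The groups overlapped, while the transcripts of the U3-specific proteins fell in the same cells.

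SNORA73A, an H/ACA RNA from the SNHG3 gene, had 772.0 and 924.5 CPM in H929 in ethanol and 724.9 and 785.6 in fluvastatin (log2 fold change -0.17 ± 0.11, adjusted p = 0.24), and its host SNHG3 fell by 0.65 on the log2 scale (adjusted p = 0.00079). SNORD3B-1, another U3 copy, fell in H929 (-1.06 ± 0.24, adjusted p = 0.0061), and SCARNA7 rose (0.45 ± 0.12, adjusted p = 0.017). TERC, the telomerase RNA, had a log2 fold change of 0.52 ± 0.28 in H929 and 0.72 ± 0.30 in KMS11 (adjusted p = 0.18 and 0.22) at 76 to 201 counts. These RNAs were named after their values were seen.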

How the data were processed

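Stranded total RNA libraries depleted of ribosomal RNA were sequenced with paired ends. Per the labels, the authors used STAR 2.5.2b and RSEM 1.3.0 with GRCh38 and, per the study's methods, GENCODE release 26. For each library the authors deposited expected counts per gene, not normalized, and TPM, scaled over all annotated genes. GENCODE release 44 gave symbols, biotypes and positions for 57392 of the 58219 identifiers.

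Expected counts were rounded. With edgeR 4.0.16 in R 4.3.3, protein-coding genes were kept by filterByExpr (minimum count 10, minimum total 15), scaled by TMM and given quasi-likelihood F tests, with p adjusted by Benjamini-Hochberg over all tested genes (threshold 0.05). The comparison across lines had a term for the line, and the others came from 1 fit of the 4 group means. SE is the absolute log2 fold change over the root of F. The scripts were tested on simulated data. CPM of RNAs that encode no protein were scaled over all genes that passed the filter. Groups came from the labels' titles.

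Alternatives were DESeq2 1.42.0, limma 3.58.1 on log2(TPM + 1), other scalings and filters, all annotated genes, a replicate block, no line term, removal of smoothed trends along GC content and effective length, and leaving out each library. All replicate pairs differed by more than counting error, so their spread and not the depth limits precision. Named were all 10 snoRNP genes, from each companion list up to 3 genes called per line with the smallest adjusted p and any called against the list's direction, and the 5 genes with the profile most like the 10. The 10 genes and the lists were chosen with earlier results of these data known. A listed marker gene is not reported here.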

Additional observations from a re-analysis of the deposited data

Results flagged for a closer look

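For 5 of the 10 snoRNP genes the change with fluvastatin was not the same in H929 and KMS11, by edgeR's test of the difference (KMS11 minus H929, log2 scale): NOP56 (0.993), FBL (0.725), SNU13 (0.707), NHP2 (1.147) and NOLC1 (0.553). In each of them both H929 fluvastatin libraries lay below both H929 ethanol libraries. In KMS11 FBL, SNU13 and NHP2 overlapped between treatments, and NOP56 and NOLC1 did not. With 2 libraries in each group, no single library could be tested for lying apart from its group.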

How the results depend on the processing

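Within H929, the count of snoRNP genes called lower, 8, was 8 or 9 under the alternatives fitted within the line and when each library was left out. Within KMS11 the count, 0, was 2 with DESeq2, 2 with no filter on low counts, 4 with a replicate block, 1 with limma on log2(TPM + 1), 4 with GC trends removed, 4 with GC and length trends removed, and 0 to 4 when each library was left out (4 without KMS11 fluvastatin replicate 2). Across both lines the count, 4, was 7 with DESeq2, 0 with a replicate block, 0 with no term for the line, 7 with GC trends removed, and 0 to 6 when each library was left out. The count of genes whose response differs, 5, was 3 with limma, 7 with GC trends removed and 3 to 5 without single libraries, and the count that differs in ethanol, 7, was 5 to 7. Over all 13129 tested genes the calls lower across both lines moved too. They were 516 in the main fit, 1234 with DESeq2, 15 with a replicate block, 0 with no term for the line and 1345 with GC trends removed. The causes were not tested.

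The value for NHP2 in KMS11 turned sign with limma (-0.059), with GC trends removed (-0.025) and without single libraries (-0.023 to 0.191). Without single libraries SNU13 in KMS11 ran from -0.151 to 0.007 and the difference for GAR1 from -0.331 to 0.069. In ethanol, limma gave 0.010 for NOP58 and 0.265 for SNU13. GC removal gave 0.027 for SNU13, -0.155 for DKC1 and -0.060 for NAF1, and GC and length removal 0.019, -0.154 and -0.035. Without single libraries SNU13 ran from -0.124 to 0.034 and DKC1 from -0.022 to 0.195.

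Replicate numbers were not shown to pair the samples: the correlation of same-numbered deviations was 0.774 in H929 and -0.0782 in KMS11, with 2 pairs each. With the numbers as a replicate block 9 genes were called lower in H929, and 5 differed between the lines. With 2 replicates per group the test rests on a spread shared across genes, and NAF1, with 138 to 469 counts, was measured least deeply.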
